A study of Mus musculus with 6 samples.

Results

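Prox1, Lyve1, Pdpn and Pecam1, the genes by which lymphatic endothelial cells are most often recognised, were followed across 6 RNA-sequencing libraries from mouse meninges, the membranes that wrap the brain. They were taken by their names in the deposited table, which lists 4233 genes and holds all 4. Meningeal lymphatic endothelial cells were sorted from male C57BL/6J mice aged 6 months as DAPI-negative, CD45-negative singlets that carried CD31 and PDPN on the surface. Of the 6 libraries, 3 came from non-transgenic WT littermates and 3 from 5xFAD hemizygous mice, and the cells of 10 mice were pooled for each. The 5xFAD transgenes are driven by the neuronal Thy1 promoter and lead to amyloid deposition in the brain. Whether the sorted endothelial cells express them was not tested. The genotype was taken from the labels and was not checked from the reads.

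Lymphatic vessels of the dura carry fluid, solutes and immune cells from the meninges toward the neck. Prox1 encodes the homeodomain transcription factor that switches venous endothelium to the lymphatic fate and is needed to keep it. Lyve1 encodes a hyaluronan receptor of the cell surface, Pdpn encodes podoplanin, a mucin-type membrane glycoprotein that binds the platelet receptor CLEC-2, and Pecam1 encodes CD31, an immunoglobulin-type adhesion molecule of endothelial junctions. None of these genes is private to lymphatic endothelium: blood vessels make CD31, fibroblasts make podoplanin, some tissue macrophages make Lyve1, and some neurons make Prox1. CD31 and PDPN were sort markers, so detection of Pecam1 and Pdpn followed from the gate, whereas Prox1 and Lyve1 were not sorted on.

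The recovered reads of the listed genes summed to between 7960827 and 13255050 per library. Libraries 5xFAD 2 and 5xFAD 3 had the fewest, 7960827 and 8573669. Listed genes without reads numbered 25 to 42 in the WT libraries and 86 to 147 in the 5xFAD libraries. The table is a selection of genes and these sums are not the depth of the libraries, so a rank given here is a rank among listed genes. The labels name no batch.

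Prox1 lies on the minus strand of chromosome 1, from 190118035 to 190170714, in the GENCODE M21 annotation of GRCm38, with 3 annotated transcripts, the longest of 7913 bases. Its normalised count (reads divided by 1 factor per library) was 23391, 14913 and 23828 in WT 1, WT 2 and WT 3. It was 37762, 16239 and 24190 in 5xFAD 1, 5xFAD 2 and 5xFAD 3. The highest and the second lowest value were thus both from 5xFAD mice, and the groups overlapped. WT averaged 20711 ± 5025 and 5xFAD 26064 ± 10883 (SD, n = 3 each). By normalised count Prox1 ranked 23rd, 64th and 31st of the listed genes in the WT libraries and 17th, 42nd and 41st in the 5xFAD libraries, which is within the top 1.51% in every library. An antisense gene, Prox1os, overlaps exons of Prox1, and without stated strandedness its reads cannot be told from those of Prox1.

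The count of Prox1 is a sum over its transcripts, which open at more than 1 start. RefSeq (build GRCm38.p6) gives 2 starts for Prox1 and 1 for Pdpn, and matched 2 of the 4 genes; Lyve1 and Pecam1 had no entry. The 250 bases before each start are shown because they stand before the pair of genes whose ratio was most even among the 5xFAD libraries, described further on. The bases after the Pdpn start open a GENCODE M21 transcript, and those after the 2 Prox1 starts do not. The outer Prox1 window begins beyond the GENCODE end of Prox1 at 190170714. Capitals mark the core of ETS factor sites (GGAA, either strand), a family that includes endothelial regulators such as Erg, Fli1 and Ets1.
Prox1, outer start, minus strand of chr1:190170828-190171077: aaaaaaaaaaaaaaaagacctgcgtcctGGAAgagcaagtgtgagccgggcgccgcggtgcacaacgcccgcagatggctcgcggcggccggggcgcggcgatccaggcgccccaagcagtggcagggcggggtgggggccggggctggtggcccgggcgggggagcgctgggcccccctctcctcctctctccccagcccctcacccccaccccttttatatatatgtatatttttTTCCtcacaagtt
Prox1, inner start, minus strand of chr1:190169516-190169765: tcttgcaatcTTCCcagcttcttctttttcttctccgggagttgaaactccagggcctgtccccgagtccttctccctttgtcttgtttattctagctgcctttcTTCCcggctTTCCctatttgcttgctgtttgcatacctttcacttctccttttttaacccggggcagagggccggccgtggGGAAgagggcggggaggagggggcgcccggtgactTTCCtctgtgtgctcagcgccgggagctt
Pdpn, minus strand of chr4:143299565-143299814: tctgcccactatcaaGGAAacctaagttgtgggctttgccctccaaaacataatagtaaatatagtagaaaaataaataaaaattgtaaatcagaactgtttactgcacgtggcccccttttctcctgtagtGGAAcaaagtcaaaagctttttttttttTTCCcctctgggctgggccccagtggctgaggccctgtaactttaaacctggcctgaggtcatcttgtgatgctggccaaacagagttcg
The core was found 2, 5 and 3 times in these windows, overlaps counted. It occurs in 93.4% of the 32851 windows of the same length in the table, so its presence does not set these genes apart. AACAAT, the site of SOX factors such as Sox18, and GATAA, the site of GATA factors, were found 0 times in each window on either strand. They occur in 9.42% and 22.6% of all windows.

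Lyve1 (chromosome 7, 110850607 to 110863239, minus strand, longest transcript 2893 bases) had the highest normalised counts of the 4, before any correction for length. Its normalised count was 58061, 33680 and 37260 in WT 1, 2 and 3 and 45842, 20823 and 45123 in 5xFAD 1, 2 and 3. The highest value came from a WT library and the lowest from 5xFAD 2, and between them 5xFAD 1 and 5xFAD 3 lay above WT 2 and WT 3. WT averaged 43001 ± 13165 and 5xFAD 37263 ± 14242 (SD, n = 3 each). Lyve1 ranked between 8th (WT 1) and 26th (5xFAD 2) among listed genes and took 0.622% of the recovered reads in WT 1 and 0.215% in 5xFAD 2.

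Pdpn (chromosome 4, 143267431 to 143299564, minus strand, longest transcript 1817 bases) had the lowest normalised counts, with a product that was a gate for the sort. Its normalised count was 1105, 1691 and 1423 in WT 1, 2 and 3 and 2049, 877 and 1279 in 5xFAD 1, 2 and 3. Both the highest and the lowest library were 5xFAD, on either side of all WT values. WT averaged 1406 ± 293 and 5xFAD 1401 ± 596 (SD, n = 3 each). Pdpn ranked between 1037th (5xFAD 1) and 1737th (5xFAD 2), which is the top 24.5% to 41.0% of listed genes. The value in 5xFAD 2 rested on 721 reads, with an exact 95% counting interval of 814 to 943 normalised counts, which lies below the next lowest library. Counting intervals do not cover the loss and amplification of molecules before sequencing.

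Pecam1 (chromosome 11, 106654217 to 106750628, minus strand, longest transcript 3441 bases) stood between Prox1 and Pdpn by count. Its normalised count was 9686, 8032 and 14812 in WT 1, 2 and 3 and 6935, 7555 and 19102 in 5xFAD 1, 2 and 3. 5xFAD 1 and 5xFAD 2 lay below every WT library and 5xFAD 3 lay above every WT library. WT averaged 10843 ± 3535 and 5xFAD 11197 ± 6853 (SD, n = 3 each). Pecam1 ranked between 63rd (5xFAD 3) and 257th (5xFAD 1).

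**Figure D1:**
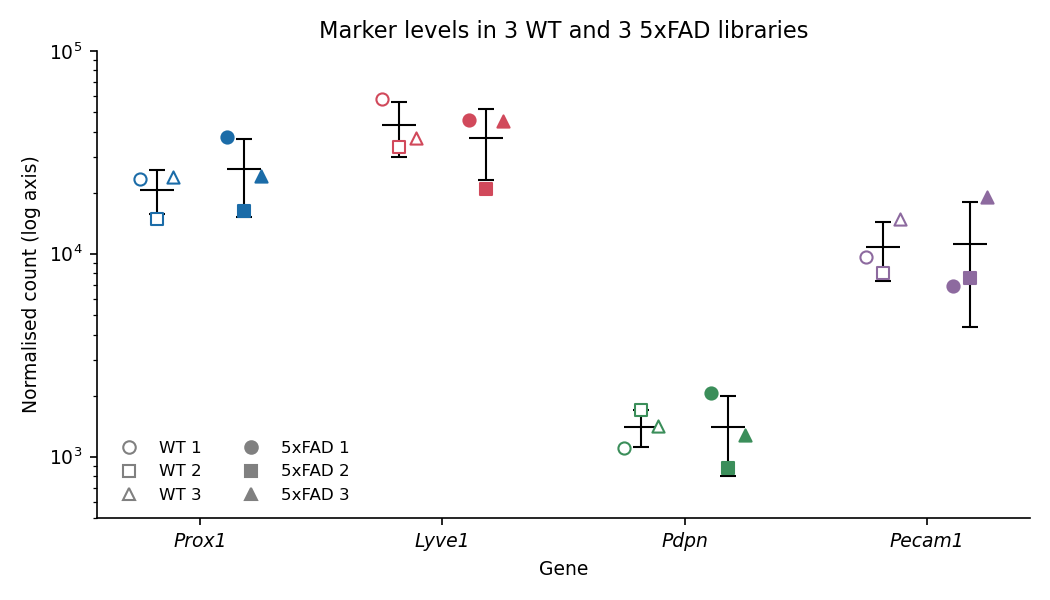
Normalised count (log axis) of Prox1, Lyve1, Pdpn and Pecam1. Open symbols are the 3 WT libraries and filled symbols the 3 5xFAD libraries, the symbol shape gives the library number, and bars are the mean ± SD of each group of 3. The WT and 5xFAD symbols overlap for every gene, and Pdpn, with means of 1406 and 1401, lies far below Lyve1, with 43001 and 37263.

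Levels of different genes can be compared only per length of transcript. Per kb of the longest transcript, the means over 6 libraries were 13872 ± 4377 normalised counts for Lyve1, 3203 ± 1418 for Pecam1, 2956 ± 1027 for Prox1 and 773 ± 231 for Pdpn (SD, n = 6). Lyve1 was above Pecam1 in all 6 libraries, by 2.81-fold (5xFAD 3) to 7.86-fold (5xFAD 1). Lyve1 was above Prox1 and Prox1 above Pdpn in all 6 as well, the latter by 2.03-fold (WT 2) to 4.86-fold (WT 1). Prox1 and Pecam1 were not ordered: Prox1 was the higher in 2 of 6 libraries. With the union of all exons as the length, which is 6228 bases for Pecam1, the Pecam1 mean fell to 1769 per kb and Prox1 was the higher in 5 of 6. Pdpn was below Pecam1 in 6 of 6 libraries by the longest transcript and in 5 of 6 by the union of exons. A value per kb takes reads to fall along the whole transcript, and where reads fell was not given in the sources used here.

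Per kb of longest transcript, Lyve1 ranked 7th to 17th among the 4176 listed genes with an annotated length, Prox1 32nd to 160th, Pecam1 48th to 172nd and Pdpn 405th to 923rd. Beside the other lymphatic identity genes, Lyve1 was the 1st of 22 with a length, ahead of Mmrn1, a secreted glycoprotein of lymphatic endothelium, at 10441 per kb. Pecam1 was 8th, Prox1 11th and Pdpn 17th of the 22. Ccl21a had no matched length and so no place in this order. By mean normalised count it was the 1st of 23, at 63278, and Lyve1 was the 5th, at 40132.

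**Figure D2:**
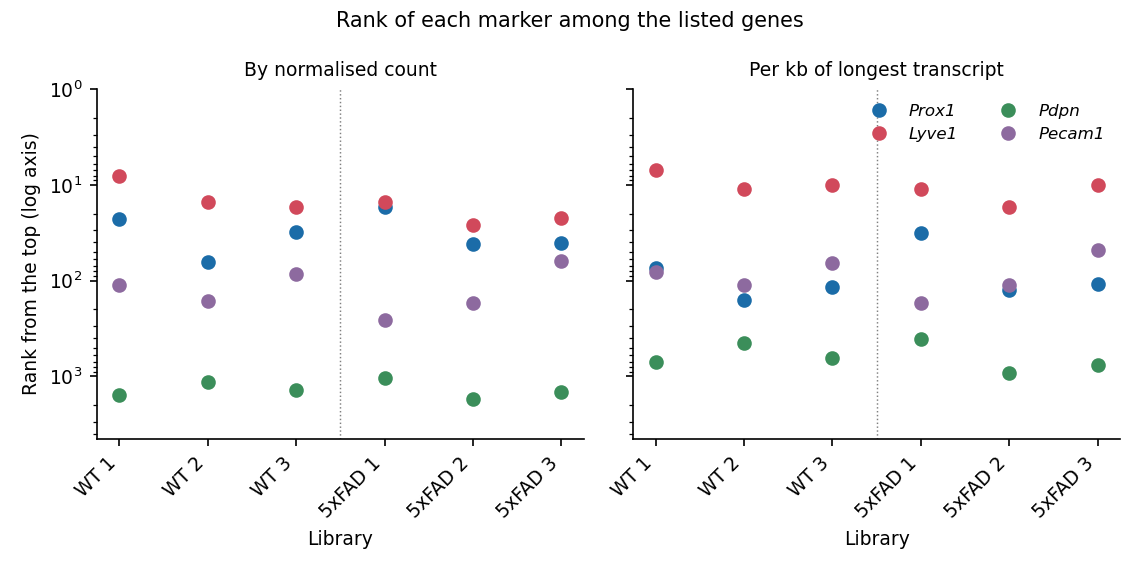
Rank of each gene from the top among listed genes in each library (log axis, top rank uppermost), by normalised count on the left and per kb of the longest transcript on the right. Lyve1 is uppermost in every library on both scales, Pdpn lowest, and Prox1 and Pecam1 change places per kb.

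The comparison of genotypes asks whether the lymphatic markers differ between cells of 5xFAD mice and of WT littermates at this age. None of the 4 genes passed the test across all genes (limma, adjusted p under 0.05 over 4152 genes), against 6.36% of all genes tested, and the groups of 3 libraries did not overlap for 0 of the 4, against 18.1% of genes tested. Without adjustment 0 of the 4 had limma p under 0.05, against 16.3% of genes tested. Of the 4, edgeR called 0 and DESeq2 called 0, against 6.05% and 10.4% of all genes with an adjusted p. The log2 fold change, 5xFAD minus WT on log2(value + 1), was 0.28 for Prox1 (SE 0.40, 95% interval -0.50 to 1.06; limma adjusted p = 0.825). It was -0.25 for Lyve1 (SE 0.32, -0.87 to 0.37; limma adjusted p = 0.790). For Pdpn it was -0.07 (SE 0.90, -1.83 to 1.69) and for Pecam1 -0.07 (SE 0.53, -1.11 to 0.97), with limma adjusted p = 0.985 and 0.971. Exact two-sided permutation of the libraries gave p = 0.4, 0.7, 0.9 and 0.9 in the same order, where 0.1 is the smallest that 3 against 3 allows. In fold terms the limma intervals run from 0.708 to 2.08 for Prox1, 0.546 to 1.29 for Lyve1, 0.281 to 3.23 for Pdpn and 0.464 to 1.96 for Pecam1. Values within those bounds remain compatible with these libraries, and the result does not show that the levels are equal. In sorted bulk RNA, fewer cells of a type and less RNA per cell cannot be told apart.

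The limma intervals use a spread typical of genes at each level. They and the limma p-values thus hardly reflect a gene's own spread among its libraries. The limma SE of the difference was 0.90 for Pdpn and 0.32 for Lyve1. The pooled SD of their own log2 values within genotypes went the other way, at 0.49 and 0.55. An SE of a difference and an SD are unlike measures, so only their order is compared. With 1 prior spread for all genes the intervals were wider for 3 of the 4. They were -1.45 to 2.01 for Prox1, -1.99 to 1.48 for Lyve1 and -1.82 to 1.68 for Pecam1. For Pdpn that interval was -1.79 to 1.65. Leaving out a single library turned the sign for every gene. Prox1 was at -0.03 without 5xFAD 1, Lyve1 at 0.12 without 5xFAD 2, Pdpn at 0.07 without WT 2 and 0.22 without 5xFAD 2, and Pecam1 at 0.18, 0.20 and 0.13 without WT 3, 5xFAD 1 and 5xFAD 2.

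**Figure D3:**
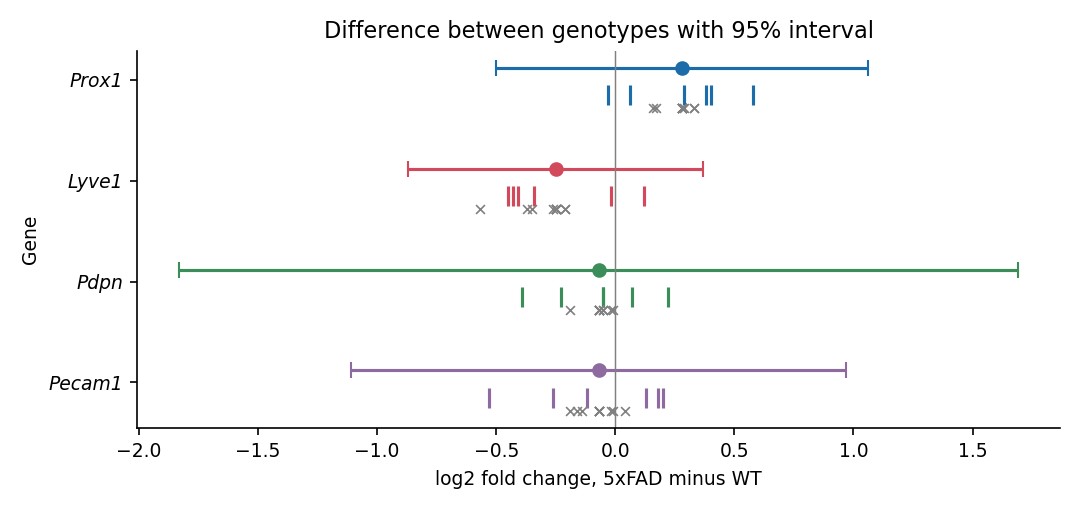
log2 fold change (5xFAD minus WT) of each gene with its 95% limma interval (point and bar). Coloured ticks below are the values with 1 library left out and grey crosses those under other scalings, filters and tools. Every interval spans 0, that of Pdpn from -1.83 to 1.69, and the ticks of every gene fall on both sides of 0.

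The markers varied from library to library more than they differed between genotypes. The highest library was above the lowest by 2.53-fold for Prox1, 2.79-fold for Lyve1, 2.34-fold for Pdpn and 2.75-fold for Pecam1. The SD of log2 values within genotypes, pooled over both, was 0.51, 0.55, 0.49 and 0.66 in that order. For genes with a mean of at least 1000 the median was 0.94, and 12.0% (Pdpn) to 24.8% (Pecam1) of those 1848 genes had a smaller SD than the gene named. Within WT the SD ran from 0.31 to 0.45 over the 4 genes and within 5xFAD from 0.61 to 0.81. It was the larger in 5xFAD for 4 of the 4, against 57.4% of the 1848 genes, and with 3 libraries a group this difference in spread was not tested.

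From library to library the genes followed each other in part. Relative to its mean over the 6 libraries on the log2 scale, Prox1 was highest in 5xFAD 1 (0.76) and lowest in WT 2 (-0.58) and 5xFAD 2 (-0.46). Pdpn shared the high value in 5xFAD 1 (0.60) and the low one in 5xFAD 2 (-0.62) but stood above its mean in WT 2 (0.32). Lyve1 was highest in WT 1 (0.60) and had its low value in 5xFAD 2 (-0.88). In 5xFAD 2 all 4 genes were below their means, and that library had the fewest recovered reads; the part of depth in this was not tested. Pecam1 was lowest in 5xFAD 1 (-0.56), where Prox1 and Pdpn were highest, and highest in 5xFAD 3 (0.90) and WT 3 (0.53).

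**Figure D4:**
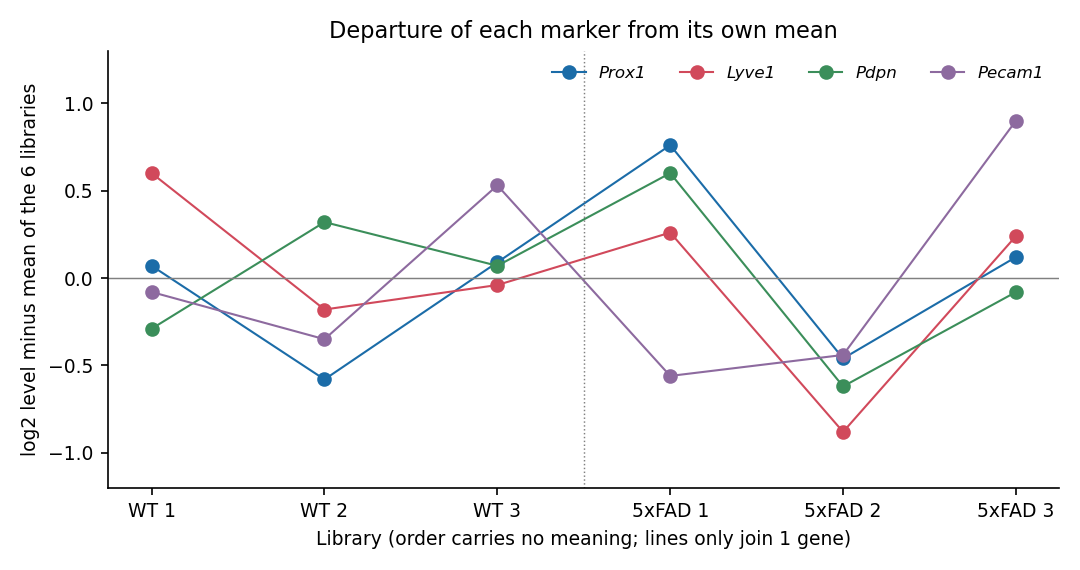
log2(value + 1) of each gene minus its mean over the 6 libraries, by library, with WT to the left of the dotted line. All 4 genes lie below 0 in 5xFAD 2, and in 5xFAD 1 Prox1 (0.76) and Pdpn (0.60) are high where Pecam1 is low (-0.56).

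Of the 6 pairs of genes, none had a correlation over the 6 libraries that passed an exact two-sided permutation test (Benjamini-Hochberg over 6 pairs; adjusted p = 0.839 for every Pearson r and 0.919 for every Spearman rho). Prox1 and Lyve1 were closest, with r = 0.63 (exact permutation p = 0.172) and rho = 0.60 (exact permutation p = 0.242). Prox1 and Pdpn had r = 0.51 (exact permutation p = 0.308) and rho = 0.37 (exact permutation p = 0.497), and Lyve1 and Pdpn r = 0.40 (exact permutation p = 0.440) and rho = 0.20 (exact permutation p = 0.714). With Pecam1, r was 0.09 for Prox1 (exact permutation p = 0.839; rho 0.09, p = 0.919), 0.30 for Lyve1 (p = 0.582; rho 0.14, p = 0.803) and -0.14 for Pdpn (p = 0.794; rho -0.26, p = 0.658). Pairs of genes with a mean of at least 1000 had a median r of 0.01, with quartiles of -0.36 and 0.37.

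Leaving out the libraries farthest from the median of Prox1, WT 2 and 5xFAD 1, gave r = 0.89 with Lyve1, 0.89 with Pdpn and 0.79 with Pecam1 over the 4 that remained. Leaving out WT 1 and 5xFAD 2, the farthest for Lyve1, gave 0.06 with Pdpn and 0.17 with Pecam1. For Pdpn and Pecam1, without 5xFAD 1 and 5xFAD 2, r was -0.29. As deviations from the genotype means the Prox1 and Lyve1 correlation was 0.79 and the Prox1 and Pdpn correlation 0.57. Over the 3 libraries of a single genotype, Prox1 and Lyve1 had r = 0.62 in WT and 0.86 in 5xFAD. Prox1 and Pdpn had opposite signs, -0.78 in WT and 1.00 in 5xFAD, as did Lyve1 and Pdpn, -0.97 and 0.84. Single libraries moved the value for Prox1 and Pdpn from 0.51 to -0.03 (without 5xFAD 1) or 0.96 (without WT 2). For Prox1 and Pecam1 it went from 0.09 to 0.81 without 5xFAD 1, to -0.11 without WT 2 and to -0.10 without 5xFAD 2.

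Ratios between markers within a library do not depend on how libraries were scaled to each other. Prox1 over Lyve1 was 0.403, 0.443 and 0.639 in WT 1, 2 and 3 and 0.824, 0.780 and 0.536 in 5xFAD 1, 2 and 3. 5xFAD 1 and 5xFAD 2 were above every WT library, while 5xFAD 3 lay below WT 3. The log2 ratio was higher by 0.53 in 5xFAD (WT -1.04 ± 0.35, 5xFAD -0.51 ± 0.34, SD, n = 3 each; exact permutation p = 0.2, and 1 after adjustment over 6 pairs). This was the largest difference between genotypes among the 6 ratios and kept its sign with each library left out, at 0.40 to 0.73.

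Prox1 over Pdpn was 21.2, 8.82 and 16.7 in WT 1, 2 and 3 and 18.4, 18.5 and 18.9 in 5xFAD 1, 2 and 3. The 5xFAD libraries were nearly the same in this ratio while each gene moved by over 2-fold among them, by 2.33-fold for Prox1 and 2.34-fold for Pdpn. The log2 ratio averaged 3.87 ± 0.65 for WT and 4.22 ± 0.02 for 5xFAD (SD, n = 3 each; exact permutation p = 0.7), and the evenness, noticed among 6 ratios, was not tested. It is the pair whose upstream bases are printed above. Lyve1 over Pdpn ranged from 19.9 (WT 2) to 52.6 (WT 1), with log2 means of 4.91 ± 0.72 and 4.73 ± 0.36 (exact permutation p = 0.8).

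The ratios to Pecam1 had the widest spread in 5xFAD. Prox1 over Pecam1 was 2.41, 1.86 and 1.61 in WT 1, 2 and 3 and 5.45, 2.15 and 1.27 in 5xFAD 1, 2 and 3, so the 5xFAD values enclosed the WT values. Lyve1 over Pecam1 was 5.99, 4.19 and 2.52 in WT and 6.61, 2.76 and 2.36 in 5xFAD. Pdpn over Pecam1 was 0.114, 0.210 and 0.0961 in WT and 0.295, 0.116 and 0.0670 in 5xFAD. Exact permutation p was 0.8, 0.9 and 1 for these 3 ratios, and every one of the 6 ratios had overlapping groups and an adjusted p of 1.

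**Figure D5:**
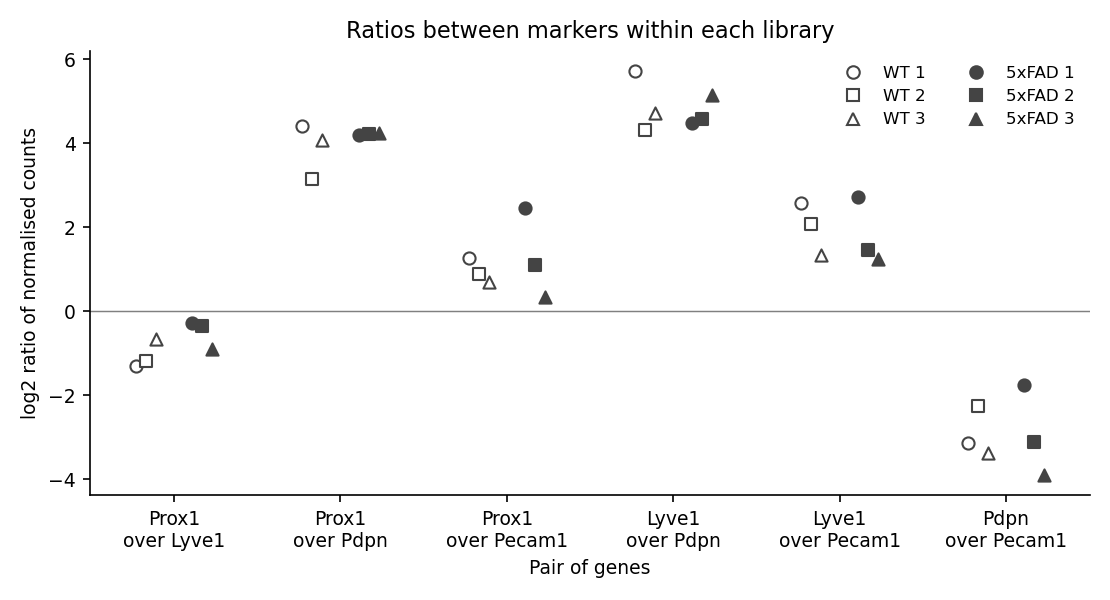
log2 ratio of normalised counts for each pair of genes within each library, WT as open and 5xFAD as filled symbols with the shape giving the library number. The 3 5xFAD points of Prox1 over Pdpn nearly coincide (4.20, 4.21 and 4.24), and the ratios to Pecam1 are most spread in 5xFAD.

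The genes with library profiles most like each member were taken from 1784 genes by Pearson r of log2 values over the 6 libraries. The search itself picks high values, so they are given as a description, with no test. For Prox1 they were Vps13c (r = 0.990), a lipid transfer protein, Elk3 (0.964), an ETS factor of endothelium, Pdlim5 (0.961), Arhgef10 (0.956) and Mmrn1 (0.934). Mmrn1 was at 46813, 26751 and 45578 in WT 1, 2 and 3 and at 67200, 36640 and 57476 in 5xFAD 1, 2 and 3. Like Prox1 it was highest in 5xFAD 1 and lowest in WT 2. For Lyve1 they were Azi2 (0.951), Tnc (0.941), which encodes the matrix protein tenascin C, Tc2n (0.941), Adarb1 (0.938), an RNA-editing enzyme, and Ap1s3 (0.922), an adaptor subunit of vesicle traffic.

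For Pdpn they were Nckap1 (0.968), a part of the WAVE complex that drives actin branching, Kctd12 (0.957), Mkln1 (0.956), Myo18a (0.949), an unconventional myosin, and Sept2 (0.948), a septin. For Pecam1 they were Cd81 (0.975) and Tspan13 (0.974), both tetraspanins, Copb2 (0.960), a coat protein of Golgi vesicles, Slco2b1 (0.955), an organic anion transporter, and Frmd4a (0.955). Cd81 was at 6167, 4091 and 14396 in WT 1, 2 and 3 and at 4264, 4819 and 15614 in 5xFAD 1, 2 and 3. It shared with Pecam1 the high values in WT 3 and 5xFAD 3. Without the libraries farthest from each member's median, r for these 20 genes ran from 0.43 (Slco2b1) to 1.00 (Vps13c).

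Beside the members, 19 of 30 other lymphatic identity genes were listed. By limma 0 of the 19 passed in either direction, against 6.36% of all genes tested. An unadjusted limma p under 0.05 was found for 2, against 16.3% of all genes tested in either direction. Both were higher, against 6.70% of all genes tested that were higher at that p. The log2 fold change was above 0 for 12 of the 19, with a median of 0.12, and all genes tested had a median of -0.02. DESeq2 called 0 of the 19 and edgeR 1, against 10.4% and 6.05% of all genes. The gene called by edgeR was the transcription factor gene Maf, named after its value was seen (limma log2 fold change 1.46, adjusted p = 0.0899). Flt4, the receptor of VEGF-C, was the steadiest of the abundant ones, at 49878, 46856 and 50346 in WT and 54209, 59152 and 46699 in 5xFAD. Its highest library was 1.27-fold above its lowest, a smaller fold than for any member. Over the 6 libraries Flt4 had r = 0.07 with Prox1, -0.57 with Lyve1, -0.36 with Pdpn and -0.58 with Pecam1. Ccl21a is a chemokine for dendritic cells whose reads may be shared with near-identical copies. It had r = 0.70 with Prox1, 0.29 with Lyve1, 0.86 with Pdpn and -0.26 with Pecam1. Over the 19 genes the median r was 0.23 with Prox1, 0.29 with Lyve1, 0.38 with Pdpn and 0.03 with Pecam1. Timp3, a matrix protease inhibitor, had a log2 fold change of 0.12 and Mmrn1 of 0.44. The factors Nr2f2 and Sox18, which act upstream of Prox1 in development, had log2 fold changes of 1.02 and -1.10 in 5xFAD against WT (limma adjusted p = 0.619 and 0.452).

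Of the Prox1 regulators and partners, 13 of 26 were listed and 12 tested, of which 1 rose and 0 fell (median 0.13). Over all genes tested, 1.88% rose and 4.48% fell, so counts of 1 in short lists do not set a list apart. The gene that rose was Adamts3, the protease that matures VEGF-C, at 3, 0 and 4 in WT 1, 2 and 3 and 237, 306 and 1181 in 5xFAD 1, 2 and 3 (7.36 on the log2 scale, SE 1.07; limma adjusted p = 9.96e-10). Its value was 6.65 without WT 2 or without 5xFAD 3. Of members that did not pass, Notch1 had a log2 fold change of 0.14, Nfatc1 of -1.26 and Ywhae of -0.37. In the list of hyaluronan binding and turnover around Lyve1, 7 of 22 were listed and tested, with 1 higher and 0 lower (median 0.39), beside the same 1.88% and 4.48% of all genes. Itih2, a chain of the serum proteins that bind hyaluronan, rose from 2, 9 and 13 in WT 1, 2 and 3 to 189, 303 and 503 in 5xFAD 1, 2 and 3 (5.27 on the log2 scale, SE 1.07; limma adjusted p = 4.44e-05), and was at 4.67 without WT 1. The scavenger receptors Stab1 and Stab2, which also take up hyaluronan, had log2 fold changes of 0.53 and 0.39, Cemip2 of 0.76 and Itih5 of -0.35.

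In the list of podoplanin ligands, partners and cytoskeletal links, 15 of 24 were tested (median 0.03). Of the 15, 0 passed by limma, edgeR or DESeq2, against 6.36%, 6.05% and 10.4% of all genes. An unadjusted limma p under 0.05 was found for 0 of the 15, against 16.3% of all genes tested. Counts of 0 in so short a list do not set it apart. Actb had a log2 fold change of 0.24, Msn, an actin linker that binds the podoplanin tail, of 0.02 and Rac1 of 0.03. Clec1b, which encodes CLEC-2, was not among the listed genes, so no level can be given for it. Of the junction partners and immunoglobulin adhesion genes around Pecam1, 20 of 33 were tested (median 0.25). By limma and edgeR 0 of the 20 passed, against 6.36% and 6.05% of all genes. An unadjusted limma p under 0.05 was found for 2, against 16.3% of all genes. DESeq2 called 1, against 10.4% of all genes. This was the phosphatase gene Ptpn11, named after its value was seen (limma log2 fold change 2.28, adjusted p = 0.124). Cdh5, the cadherin of endothelial junctions, had a log2 fold change of -0.41, Kdr of -0.46 and Ptprb, a phosphatase that acts at these junctions, of -0.37.

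In the wider pan-endothelial list, 22 of 28 were tested, 0 were higher and 2 were lower, against 1.88% and 4.48% of all genes tested. The median log2 fold change of the list was -0.35, with 9 of the 22 above 0. Robo4 fell by 2.15 on the log2 scale (SE 0.64; limma adjusted p = 0.0151), from 6715, 17901 and 15628 in WT to 4054, 6103 and 864 in 5xFAD. It did not pass without WT 2, WT 3 or 5xFAD 3 (limma adjusted p = 0.195, 0.130 and 0.219), nor by DESeq2, while edgeR called it. Its log2 fold change was -1.31 without 5xFAD 3 and -2.72 without 5xFAD 2. Sox17 was at 133, 52 and 18 in WT and had no reads in 5xFAD, at least 62.7-fold lower against a floor of 3 reads over the group. The bound was 32.3 without WT 1 and 35.5 without 5xFAD 1. Of the others, Podxl was at -0.12 and Flt1 at 0.58.

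Markers of other cells that could share the surface proteins were present in part. Of 22 meningeal fibroblast genes, which could come with podoplanin, 9 were listed and 0 passed, and their summed normalised count was 33626 to 73778 in WT and 39512 to 43949 in 5xFAD. Col1a1 averaged 9138 ± 2600 for WT and 8851 ± 2413 for 5xFAD (SD, n = 3 each), and the abundant Igf2, Col1a2 and Dcn had log2 fold changes of -0.57, -0.52 and 0.31. Of 19 blood endothelial genes, which could come with CD31, 9 were listed and 0 passed, with sums of 23209 to 30776 in WT and 22919 to 33790 in 5xFAD. The most abundant after Flt1 were Plvap, Vwf and Bsg, with log2 fold changes of 0.17, 0.41 and -0.68. Border macrophages and leukocytes, some of which make Lyve1, carry CD45, and the gate took CD45-negative cells. Of 21 of their genes 2 were listed and 0 passed: Mrc1, which lymphatic endothelium also expresses, at 10024 ± 1793 and 9745 ± 1604, and Cx3cr1 at 111 ± 76.6 and 74.5 ± 11.9. Ptprc, which encodes CD45, was not among the listed genes, so no level can be given for it. Of the mural list 4 of 12 were listed (sums of 2507 to 8628 in WT and 3400 to 4645 in 5xFAD) and of the platelet and erythroid list 1 of 12 (1362 to 2211 and 242 to 3526), and 0 of these passed. Log2 fold changes were -0.76, 1.08, -0.68 and -0.86 for the mural genes Kcnj8, Notch3, Abcc9 and Pdgfrb and -0.71 for the globin gene Hbb-bt. In these 5 lists 0 genes passed by limma, edgeR or DESeq2, against 6.36%, 6.05% and 10.4% of all genes. An unadjusted limma p under 0.05 was found for 0 of their genes, against 16.3% of all genes. Slc1a3, a glutamate transporter gene of astrocytes outside these lists, was at 160, 834 and 110 in WT 1, 2 and 3 and 583, 1356 and 1873 in 5xFAD 1, 2 and 3. It had an unadjusted limma p under 0.05 but did not pass after adjustment (log2 fold change 2.21, SE 1.00; limma adjusted p = 0.210), and its groups overlapped. The fibroblast and mural sums were highest in WT 3 (73778 and 8628), the library in which Pecam1 was highest among WT. In 5xFAD 3, where Pecam1 was highest of all libraries, these sums were 43949 and 3400, the latter the lowest mural sum in 5xFAD. Single genes went both ways, and Col1a1 and Pdgfrb were lowest among WT in WT 3 (6712 and 502). The part of such cells in the values of the 4 genes was not tested.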

How the data were processed

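Per the labels' protocols, RNA was isolated by the PicoPure method and went through linear amplification. The submitters' processing notes name FastQC, Trimmomatic, Salmon, DESeq2 and the build mm10, with no settings. The deposited values are a normalised signal, made by the authors by dividing each library's gene counts by a factor of its own; 100% of values were whole multiples of the column's smallest value (within 1e-06), so reads were recovered. The SD of log2(reads + 1) within a genotype reached at most 1.99961 over listed genes, a limit whose origin is not given in the sources used here. Shares and spreads given over all genes are over listed genes only, so this limit applies to them too.

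Genes with a mean of at least 10 (4152) were tested with limma 3.58.1 in R 4.3.3 on log2(value + 1) with a variance prior that follows level, two-sided, Benjamini-Hochberg adjusted p under 0.05 over all genes tested. The scale understates changes of low genes. edgeR 4.0.16 called 80 genes higher and 171 lower on the recovered reads. Single values used exact permutation, and scipy 1.17.1 gave the counting intervals and the ranks behind Spearman rho. Lengths came from GENCODE M21 (4176 of 4233 genes matched). Other settings changed pseudocount, filter, prior, weights, scaling, tool, replicate block and length, and left out each library. The pipeline was tested on simulated data.

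The members and lists were chosen with earlier results of these data known. Named genes were the members, fixed reference genes, called list genes with up to 4 abundant ones per list, and the 5 most alike profiles per member (mean at least 1000, range at least 0.5, predicted names left out). One further list of other cell types is not reported here.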

Additional observations from a re-analysis of the deposited data

How the results depend on the processing

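With each library left out in turn, log2 fold changes ran from -0.03 to 0.58 for Prox1, -0.45 to 0.12 for Lyve1, -0.39 to 0.22 for Pdpn and -0.53 to 0.20 for Pecam1. Over all 18 alternatives per gene, limma, edgeR or DESeq2 adjusted p was from 0.244 to 1, so no member passed under any. Pecam1 turned to 0.04 with DESeq2; the cause was not tested. Differences in log2 ratio without single libraries were -0.02 to 0.62 for Prox1 over Pdpn, -0.23 to 0.82 for Prox1 over Pecam1, -0.48 to 0.22 for Lyve1 over Pdpn, -0.64 to 0.11 for Lyve1 over Pecam1 and -0.58 to 0.49 for Pdpn over Pecam1. Correlations without single libraries were -0.03 to 0.96 for Prox1 and Pdpn, -0.11 to 0.81 for Prox1 and Pecam1, -0.50 to 0.77 for Lyve1 and Pdpn, -0.02 to 0.49 for Lyve1 and Pecam1 and -0.60 to 0.26 for Pdpn and Pecam1. Scaled to the same total, Prox1 and Pecam1 had r = -0.16, and with quantile normalization r was -0.36 for that pair and -0.07 for Lyve1 and Pecam1; the cause was not tested. The union of exons put Pecam1 at 1769 per kb, from a longer length. Calls over all genes, 78 higher and 186 lower, were 49 and 116 when the mean had to reach 50, which tests fewer genes. Quantile normalization gave 120 and 160, and DESeq2 gave 163 and 264; the cause was not tested. With equal totals the median over all genes went from -0.02 to -0.14 on the log2 scale, and Prox1 to 0.16. With the replicate block there were 80 higher and 190 lower; same-numbered libraries did not deviate together (r = 0.00247, -0.0157 and -0.0126), and no member's call changed. Pdpn rested on the fewest reads, 721 in 5xFAD 2.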
